A study of Danio rerio with 11 samples.

Results

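The genes described here are those of the Notch pathway and its her effectors in zebrafish embryos sorted by an rfx4 mutant phenotype. They were taken by name, from the rows of the deposited tables whose symbol is that of a Notch receptor, a Delta or Jagged ligand, a Fringe enzyme, a Numb or RBPJ gene, or a hey or her gene. The rule found 40 of the 14473 genes in the tables, and all 40 passed the filter on low counts. The pattern for the mind bomb ligases found mibp and mibp2, which share the letters but are not mind bomb genes. These were kept as members and are described apart. The pattern found no row named for the ligase genes themselves, so they could not be analysed here.

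RNA was sequenced from 11 single whole embryos at about 25 hours post fertilisation (hpf), raised at 29 °C. The 6 mutants (replicates 1, 3, 4, 5, 6 and 7) carry the genotype label rfx4 mutant and the 5 siblings (replicates 2, 3, 4, 7 and 8) the label control. The design text describes an incross of rfx4uw8013/+ fish whose progeny were sorted by appearance, so a sibling may be wild type or heterozygous. The growth protocol instead names double zic2 heterozygous parents, and the files do not settle which is right. Each mutant library held 16238368 to 18296024 counts and each sibling library 17133737 to 21104811. The targeted transcript, rfx4, was present in every embryo, at 41.9 ± 8.68 CPM in mutants (SD, n = 6) against 60.4 ± 9.84 CPM in siblings (SD, n = 5). CPM here is counts per 1000000 on library sizes scaled by TMM, which compares one gene between embryos. Mutants 6 and 7, at 54.1 and 51.1 CPM of rfx4, lay within the sibling range, and the other 4 mutants lay below it.

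Notch signalling passes between touching cells. A Delta or Jagged ligand on one cell binds a Notch receptor on its neighbour, the receptor's intracellular part is cut free, and in the nucleus it joins the DNA-binding protein RBPJ to switch on her and hey genes, which encode basic helix-loop-helix repressors. In the neural tube this keeps progenitors from becoming neurons by repressing proneural genes. In the presomitic mesoderm of the tailbud, oscillating her genes form part of the clock that times somite formation. Several her genes, among them her3, her5 and her9, are set by position in the neural plate and not by activation through Notch.

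No member passed the test between mutants and siblings. The edgeR quasi-likelihood test with Benjamini-Hochberg adjustment over all 12301 tested genes called 0 of 40 members at 0.05, against 0% of all tested genes. At an unadjusted p under 0.05 there were 4 members, her1 and hey1 higher and her13 and mibp lower in mutants, against 6.85% of all tested genes, 3.79% higher and 3.06% lower. With 2 members in each direction, the members' share was close to that of all genes. DESeq2 and limma-voom also called 0 members, with 5 at an unadjusted p under 0.05 each, against 43 and 2 calls and 6.44% and 6.68% at such a p over all genes in the same fits. The groups overlapped in all 40 members, 0 of which lay wholly apart, while 0.943% of all tested genes had no overlap, 0.455% with mutants higher and 0.488% with mutants lower. Of the 40 fold changes (mutant over sibling), 23 were above and 17 below 0, against 50.2% above and 49.8% below over all tested genes. Scaled by total counts, 27 were above and 13 below. Their median was 0.025 on the log2 scale, and that of all tested genes was 0.00089. Most members differed little: the fitted log2 fold changes outside her1, her7, her13 and her4.3 lay between −0.22 and 0.24.

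**Figure D1:**
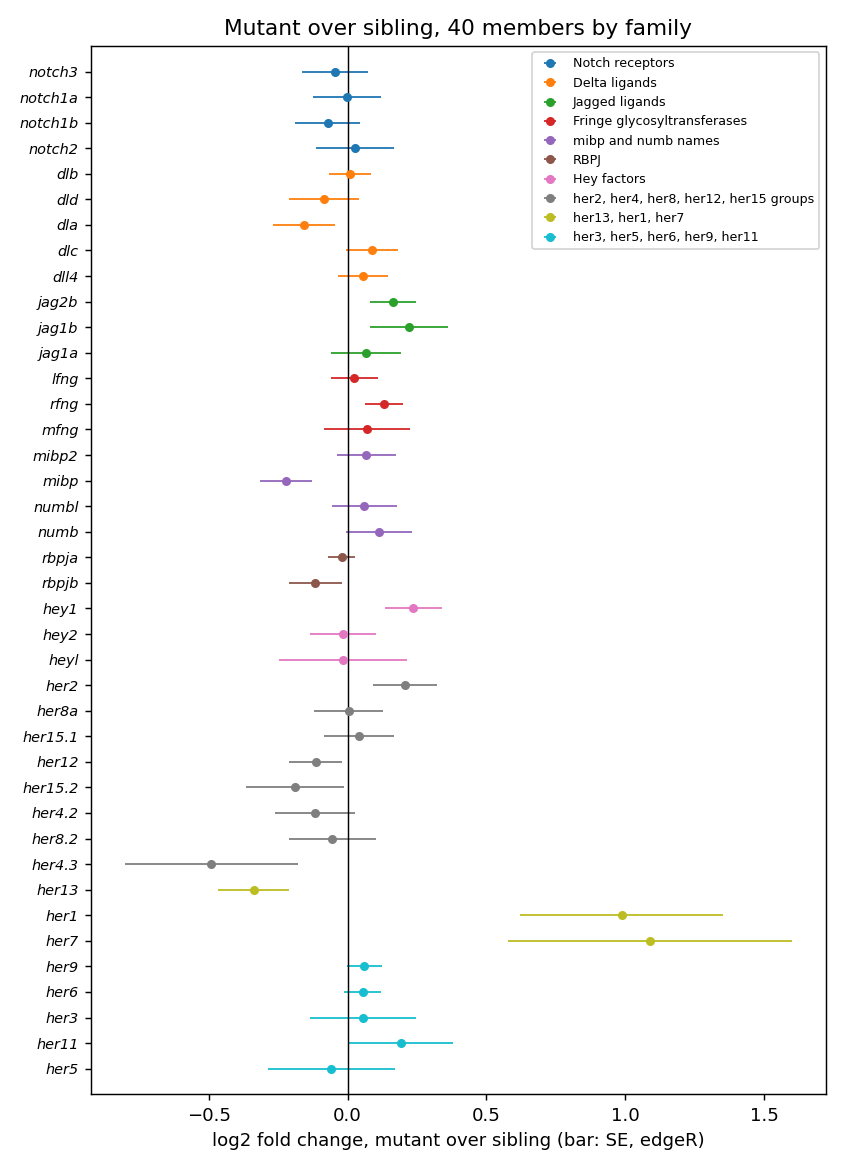
The log2 fold change, mutant over sibling (horizontal axis), of each of the 40 members (rows, coloured by family), with bars of 1 SE from edgeR. The points of her1 and her7, at 0.99 and 1.09, lie far right of the others and have the widest bars, and her4.3 and her13 lie farthest left.

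Levels between genes were compared in TPM, which the authors scaled for gene length, and are given as the mean over the 11 embryos unless a group is named. Among the receptors notch3 and notch1a were the most abundant. Mean notch3 was 104 ± 16.9 TPM in mutants (SD, n = 6) against 105 ± 18.4 TPM in siblings (SD, n = 5), and notch1a, which acts in somites and neurons, was at 100.2 ± 16.3 TPM in mutants against 97.1 ± 13.3 TPM in siblings. These receptors did not differ in level beyond their spread. The remaining receptors were several times lower. For notch1b the means were 29.4 TPM in mutants against 30.3 TPM in siblings, and for notch2 they were 19.5 TPM in mutants against 18.7 TPM in siblings.

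The fitted log2 fold changes of the receptors were −0.045 ± 0.12 (SE) for notch3, −0.0028 ± 0.12 for notch1a, −0.071 ± 0.12 for notch1b and 0.026 ± 0.14 for notch2. None had an edgeR adjusted p below 0.934. The signs of notch3 and notch1a turned when single embryos were left out, and that of notch1a also with the scaling. In notch2 the lowest, median and highest mutants were at 78.4, 141 and 145 CPM, and the siblings at 127, 106, 125, 131 and 142 CPM. The low value was that of mutant 6, and the other 5 mutants lay between 122 and 145 CPM.

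**Figure D2:**
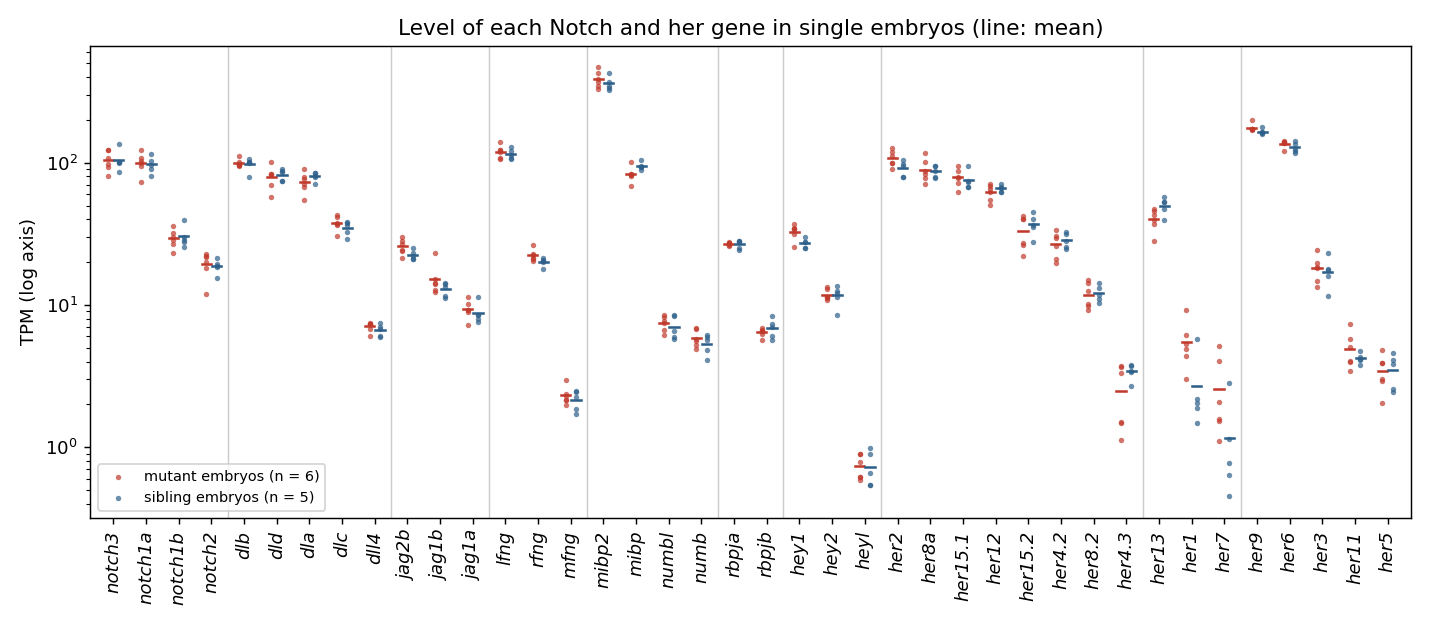
TPM (vertical log axis) of each member in every embryo, with mutants (n = 6) left of siblings (n = 5) for each gene and a line at each group's mean. Most genes have near-equal means in both groups, and her1, her7 and her4.3 show the widest spread between embryos.

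The Delta ligands, which send the signal in neurogenesis and segmentation, were at similar levels to the main receptors. Mean dlb was 100.1 ± 6.40 TPM in mutants against 97.6 ± 10.3 TPM in siblings, dld, which acts in segmentation and neurogenesis, was at 79.3 ± 14.6 TPM in mutants against 82.6 ± 7.79 TPM in siblings, and dla was at 73.2 ± 12.3 TPM in mutants against 80.2 ± 5.34 TPM in siblings. Levels of dla and dld did not differ from each other beyond their spread. Lower in level were dlc, the gene of the beamter mutant, at 37.7 TPM in mutants against 34.8 TPM in siblings, and dll4, a ligand of the arterial endothelium, at 7.06 TPM in mutants against 6.66 TPM in siblings.

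Between the groups the fold changes of the 5 Delta genes ran from −0.16 to 0.088 on the log2 scale, and the lowest edgeR adjusted p was 0.81. Of the Delta genes, dla and dld varied clearly more among mutants than among siblings. The lowest, median and highest mutants had 109, 148 and 187 CPM of dla, and the siblings had 168, 170, 164, 153 and 170 CPM. For dld the lowest, median and highest mutants were at 127, 180 and 229 CPM, and the siblings at 194, 200, 169, 177 and 202 CPM. In both genes mutant 6 was the lowest and mutant 7 the highest of the 11 embryos, and the coefficient of variation for dla was 18.2% in mutants and 4.42% in siblings. For dlb this coefficient was 8.12% in mutants and 9.53% in siblings, for dlc 12.1% and 10.5%, and for dll4 9.65% and 9.47%. The differences in spread were not tested.

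The 3 Jagged ligands in the table all had higher fitted values in mutants, under every scaling tried, but none passed the test. The coefficients were 0.22 ± 0.14 (SE) for jag1b, 0.17 ± 0.083 for jag2b and 0.068 ± 0.13 for jag1a on the log2 scale, and the lowest edgeR adjusted p was 0.746. The lowest, median and highest mutants had 58.5, 62.6 and 105 CPM of jag1b, and the siblings had 62.5, 54.2, 62.0, 53.5 and 65.1 CPM. One embryo, mutant 6 at 105 CPM, set that value apart, and the other mutants lay at 58.5 to 67.7 CPM. Without mutant 6 the log2 fold change of jag1b was 0.065, and without mutants 6 and 7 that of jag2b was 0.071. For jag2b the lowest, median and highest mutants were at 83.6, 91.1 and 112 CPM and the siblings at 80.0, 88.4, 78.9, 81.6 and 91.7 CPM. Here 3 of 6 mutants lay above the highest sibling. In TPM, jag2b was the highest of the family at 25.8 in mutants and 22.5 in siblings.

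Fringe enzymes add sugars to Notch and shift its response to ligand. Of the 3, lfng was far the most abundant, at 119 ± 12.2 TPM in mutants against 115 ± 9.497 TPM in siblings, followed by rfng at 22.4 ± 2.12 TPM in mutants against 20.0 ± 1.39 TPM in siblings. The lowest of them was mfng, at 2.31 TPM in mutants against 2.15 TPM in siblings. For rfng, which in zebrafish marks hindbrain rhombomere boundaries, the lowest, median and highest mutants were at 49.6, 54.5 and 64.7 CPM and the siblings at 50.8, 52.0, 50.3, 46.7 and 53.2 CPM. Mutants lay above the highest sibling in 5 of 6 cases, by small margins, with the widest in mutant 6. The log2 fold change of rfng was 0.13 ± 0.068 (SE, edgeR adjusted p = 0.749, exact two-sided permutation p = 0.039, unadjusted), and 0.082 without mutant 6. That of lfng was 0.024 ± 0.084 and that of mfng 0.069 ± 0.15.

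Inside the receiving cell, Numb proteins restrain Notch and RBPJ proteins carry its signal to DNA. Of all members rbpja varied least among the mutants, while dla and then rbpja varied least among the siblings. The coefficient of variation of rbpja was 2.49% in mutants and 4.52% in siblings. Mean rbpja was 27.0 ± 0.646 TPM in mutants against 26.8 ± 1.91 TPM in siblings, and its paralog rbpjb was at 6.45 ± 0.446 TPM in mutants against 6.87 ± 1.06 TPM in siblings. Log2 fold changes were −0.021 ± 0.048 (SE) for rbpja and −0.12 ± 0.096 for rbpjb. For numb and numbl they were 0.11 ± 0.12 and 0.060 ± 0.12, at 5.87 and 7.44 TPM in mutants against 5.31 and 7.00 TPM in siblings.

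The unrelated mibp2 was the most abundant of the 40 genes, at 387 ± 51.7 TPM in mutants against 362 ± 40.01 TPM in siblings, with a log2 fold change of 0.068 ± 0.11. The lowest, median and highest mutants had 69.5, 83.1 and 106 CPM of mibp, and the siblings had 90.5, 111, 97.7, 102 and 97.3 CPM. Of the mutants 5 of 6 lay below the lowest sibling, and mutant 7 lay within the siblings. On the log2 scale mibp was at −0.22 ± 0.094 (SE, edgeR adjusted p = 0.711, exact permutation p = 0.0433, unadjusted).

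The Hey factors are her-related repressors, with hey2, the gene of the gridlock mutant, known for the aorta. The most abundant was hey1, at 32.7 ± 4.00 TPM in mutants against 27.2 ± 2.09 TPM in siblings. In CPM the lowest, median and highest mutants were at 55.5, 73.4 and 83.1 and the siblings at 60.2, 63.9, 56.9, 71.0 and 55.8. Mutants lay above the highest sibling in 4 of 6 cases, mutant 1 lay within the siblings and mutant 6 just below the lowest of them. For hey1 the log2 fold change was 0.24 ± 0.10 (SE, edgeR unadjusted p = 0.0362, adjusted p = 0.711, exact permutation p = 0.0736). Without mutant 6 it was 0.30, with an edgeR adjusted p of 0.322. For hey2 and heyl, at 11.8 and 0.737 TPM in mutants against 11.7 and 0.724 TPM in siblings, the log2 fold changes were −0.016 ± 0.12 and −0.017 ± 0.23.

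Among the her genes, her9 and her6 were the most abundant. Mean her9 was 177 ± 12.04 TPM in mutants against 166 ± 7.47 TPM in siblings, and her6, the counterpart of mammalian Hes1, was at 136 ± 7.80 TPM in mutants against 128 ± 10.6 TPM in siblings. They also varied little, with a coefficient of variation of 6.80% in mutants and 6.35% in siblings for her9. Their log2 fold changes were 0.060 ± 0.062 and 0.055 ± 0.067 (SE). The other genes of this kind were low. For her3, which represses neurog1 in the early neural plate, the means were 18.2 TPM in mutants against 17.2 TPM in siblings. For the midbrain-hindbrain boundary genes her5 and her11 they were 3.44 and 4.93 TPM in mutants against 3.50 and 4.23 TPM in siblings. The log2 fold changes of her3, her5 and her11 were 0.055, −0.059 and 0.19. The last rested on mutants 7 and 6, at 5.64 and 4.304 CPM, against 2.56 to 3.70 CPM in the other mutants and 3.06 to 3.66 CPM in siblings.

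The her genes grouped here as answering to Notch in neural progenitors are those of the her2, her4, her8, her12 and her15 names. Whether each answers to Notch in these embryos, or in that tissue alone, was not tested. They gave 3 fold changes above and 5 below 0, with a median of −0.085. Without mutant 6 there were 4 above and 4 below, with a median of −0.017. Without mutants 6 and 7 there were 2 above and 6 below, with a median of −0.046. The highest in level was her2, at 107 ± 13.7 TPM in mutants against 91.2 ± 11.2 TPM in siblings, then her8a at 89.2 ± 17.0 TPM in mutants against 87.1 ± 8.27 TPM in siblings. In CPM of her2 the lowest, median and highest mutants were at 41.7, 48.3 and 60.5 and the siblings at 36.9, 48.1, 37.7, 47.1 and 48.6. Mutants 4, 5 and 7 lay above the highest sibling and the other 3 within the sibling range. Between the groups the log2 fold change of her2 was 0.21 ± 0.12 (SE, edgeR adjusted p = 0.769, exact permutation p = 0.134), and that of her8a was 0.0037 ± 0.12.

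In the gene table of a later assembly (GRCz12tu) her12 lies next to her4.2, with her4.1 between her4.2 and her4.3, and her2, her15.1 and her15.2 lie in one run. The rule found no row named her4.1 in the deposited tables, so the her4 group is seen only in part. Copies of the her4 and her15 groups may be alike enough to exchange reads in an estimate of counts, which was not checked here. Values of single copies are therefore uncertain. Mean her15.1 was 79.0 TPM in mutants against 75.2 TPM in siblings, her12 was at 62.1 TPM in mutants against 65.9 TPM in siblings, and her15.2 was at 33.0 TPM in mutants against 36.8 TPM in siblings. Lower still were her4.2, at 26.8 TPM in mutants against 28.5 TPM in siblings, and her8.2, at 11.8 TPM in mutants against 12.1 TPM in siblings. The log2 fold changes of these 5 genes ran from −0.19 for her15.2 to 0.041 for her15.1.

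Single mutants stood apart in her4.3, at 2.47 ± 1.22 TPM in mutants against 3.41 ± 0.434 TPM in siblings. Mutants 1, 3 and 6 had 1.72, 1.66 and 1.32 CPM, while mutants 4, 5 and 7 had 4.67, 4.25 and 4.02 CPM. The siblings had 3.17, 4.68, 4.13, 4.17 and 4.42 CPM. So 3 mutants lay below every sibling and 3 lay among them, with counts of 22 to 31 in the low mutants and of 59 or more in every other embryo. Fitted over all embryos, the log2 fold change was −0.49 ± 0.31 (SE, edgeR adjusted p = 0.802, exact permutation p = 0.156). The related her4.2 was also lowest in mutants 6 and 1, at 22.2 and 23.7 CPM, with mutant 3 at 28.7 CPM and siblings at 36.9, 37.4, 28.6, 30.9 and 32.0 CPM.

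**Figure D3:**
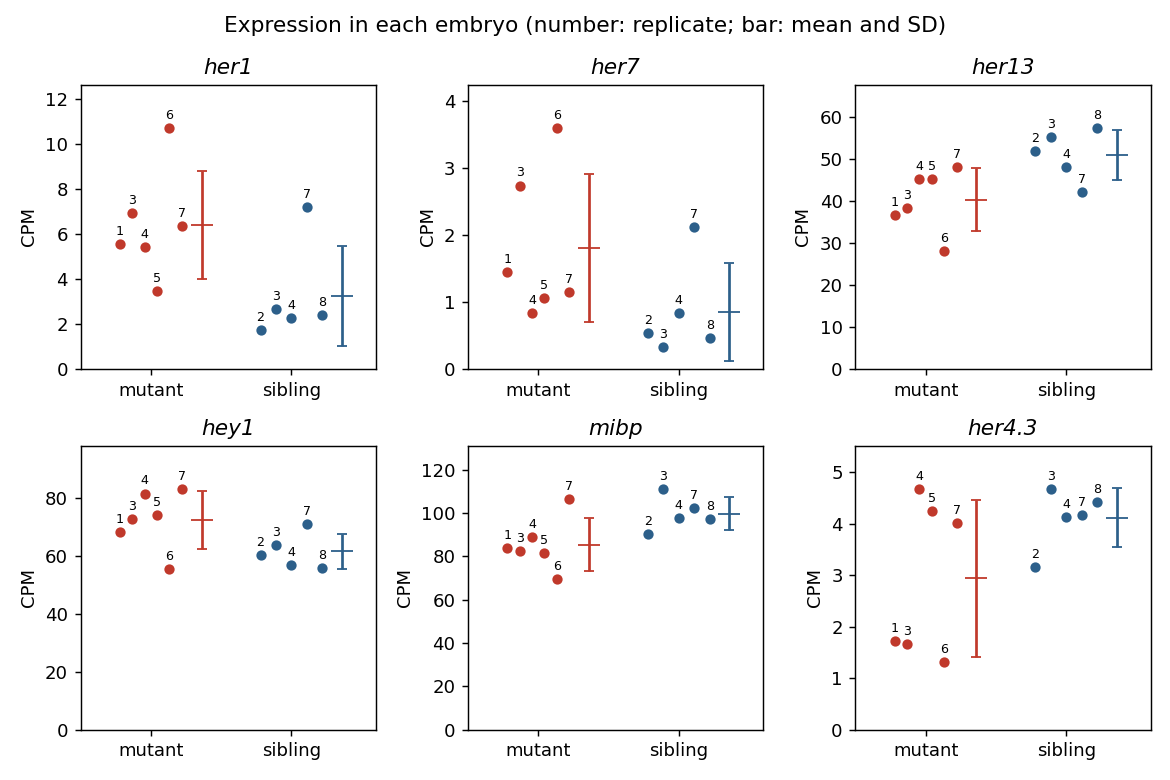
CPM (vertical axis, from 0) of 6 members in every embryo, mutants left of siblings, numbered by replicate, with the mean and SD of each group as a bar. Mutant 6 and sibling 7 are the highest of their groups for her1 and her7, and mutants 1, 3 and 6 sit below all siblings for her4.3.

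The widest differences between the groups were in her1 and her7, cyclic repressors of the somite clock, which lie next to each other in the GRCz12tu table. The lowest, median and highest mutants had 3.48, 5.95 and 10.7 CPM of her1, and the siblings had 1.72, 2.64, 2.24, 7.18 and 2.38 CPM. All 6 mutants were above 4 of the 5 siblings, and sibling 7 was above every mutant but mutant 6. The mean was 6.41 ± 2.41 CPM in mutants (SD, n = 6) against 3.23 ± 2.23 CPM in siblings (SD, n = 5), a ratio of 1.98. The log2 fold change was 0.99 ± 0.37 (SE, edgeR unadjusted p = 0.0186, adjusted p = 0.672, exact two-sided permutation p = 0.0303). Without sibling 7 it was 1.51 and without mutant 6 it was 0.78, with edgeR adjusted p of 0.287 and 0.722.

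For her7 the lowest, median and highest mutants were at 0.831, 1.29 and 3.59 CPM and the siblings at 0.537, 0.331, 0.827, 2.11 and 0.453 CPM. Every mutant again lay above siblings 2, 3, 4 and 8, by a hair in mutant 4, whose 13 counts compare with 14 in sibling 4. For this gene the log2 fold change was 1.09 ± 0.51 (SE, edgeR adjusted p = 0.732, exact permutation p = 0.0649). Without sibling 7 it was 1.75, and without mutant 6 it was 0.78. Raw counts were only 13 to 60 in mutants against 7 to 38 in siblings. Siblings 2, 3 and 8 held 10, 7 and 8 counts, so passing the low-count filter rested on the mutants, where her7 was higher. With no low-count filter its log2 fold change was also 1.09 (edgeR adjusted p = 0.742). In TPM both were near the bottom of the 40 genes, her1 at 5.498 in mutants and 2.67 in siblings and her7 at 2.58 in mutants and 1.17 in siblings.

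Levels of her1 and her7 went together across embryos. Over the 11 embryos the log2 CPM of the pair gave Pearson's r of 0.865 and Spearman's rho of 0.891 (permutation p = 0.00074 and 0.00046, adjusted over 4 relations 0.000987 and 0.00184). Without the 2 embryos farthest from the median of her1 the r was 0.914, and within the 6 mutants it was 0.782. Within the siblings the r was 0.803, from fewer embryos still, so values within siblings are uncertain. The 4 relations were chosen after the values were seen, so the adjustment does not cover the pairs passed over. Their p-values are over the 11 embryos of both groups. A shift between the groups shared by both values of a pair therefore enters them, and no p within a group was computed.

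Presomitic mesoderm and tailbud markers had fitted values in the direction of her1. Their list was chosen with earlier results of these data known, so it is no independent evidence of its direction. Log2 fold changes ran from 0.017 for cdx4 to 0.66 for mespaa, and those of wnt8a and cyp26a1 were also small, at 0.023 and 0.067. Of the 13 markers with values, 10 were tested. All 10 had higher fitted values in mutants under each scaling, with a median log2 fold change of 0.33. Over all tested genes 50.2% did. Without mutant 6 this was 8 of 10, with a median of 0.28 and 1 gene at an unadjusted p under 0.05. Without sibling 7 it was 10 of 11 tested, with 6 at such a p. The added gene had failed the low-count filter with every embryo in. Low-count markers such as mespaa and ripply2, at mean counts of 15.9 and 17.7, could pass the filter through the mutants alone, where they were higher. Their place among the higher genes is then not independent of the filter. The share of all tested genes at such a p was 6.78% without mutant 6, 5.97% without sibling 7 and 6.85% with every embryo. None of the 10 passed the edgeR test after adjustment, and 2 had an unadjusted p under 0.05. One was msgn1, a regulator of presomitic mesoderm, at 7.95 ± 1.31 CPM in mutants against 5.58 ± 0.551 CPM in siblings (0.51 ± 0.13 SE, edgeR adjusted p = 0.428), and the other was ripply1, which acts at the somite boundary, at 0.35 ± 0.15 SE (adjusted p = 0.712). The summed level of the 13 markers was 96.5 to 134 CPM in mutants against 91.1 to 106 CPM in siblings, with mutant 6 the highest mutant and sibling 7 the highest sibling. None of the 13 was at 0 in any embryo. Most of the sum came from cyp26a1, fgf8a and cdx4. Their means were 33.6, 22.1 and 15.4 CPM in mutants against 32.1, 17.8 and 15.2 CPM in siblings. The highest mutant had 34.6 CPM of fgf8a, against a mutant median of 19.6 CPM. In which tissue the RNA of these genes lay was not tested, so the sum is no measure of presomitic mesoderm alone. The T-box factor tbx16 was at 5.81 CPM in mutants against 4.96 CPM in siblings (0.23 ± 0.19 SE, edgeR adjusted p = 0.837). Over the 11 embryos her1 and this sum gave r of 0.881 and rho of 0.809 on the log2 scale (permutation p = 0.00032 and 0.0044, adjusted 0.00064 and 0.00587). The r was 0.870 without the 2 farthest embryos, 0.867 within the 6 mutants and 0.929 within the siblings. In whole embryos more cells of a type and more RNA per cell cannot be told apart. The part of these markers in the her1 and her7 difference was not tested.

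**Figure D4:**
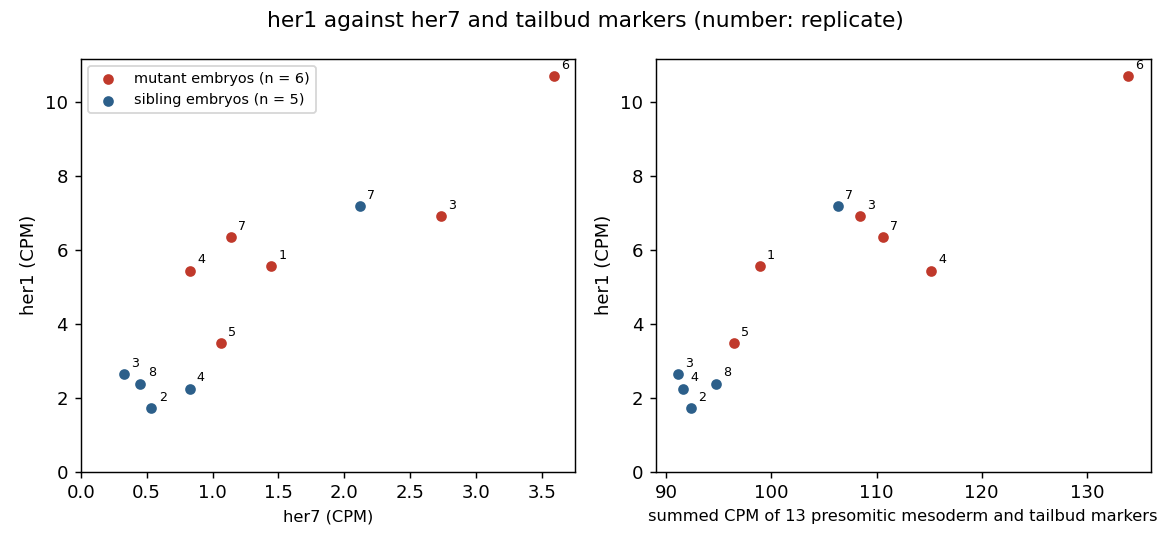
The CPM of her1 (vertical axis) against the CPM of her7 (left) and against the summed CPM of 13 presomitic mesoderm and tailbud markers (right, axis not from 0), 1 point an embryo, numbered by replicate. Siblings 2, 3, 4 and 8 lie at the lower left of both plots, and sibling 7 lies among the mutants.

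The direction was the other way for her13, grouped with her1 and her7 by its number alone. The lowest, median and highest mutants had 28.0, 41.9 and 48.1 CPM, and the siblings had 51.8, 55.3, 48.1, 42.2 and 57.3 CPM. Mutants 1, 3 and 6 lay below every sibling and the other 3 among the lower siblings. In TPM it was at 40.2 ± 6.92 in mutants and 49.98 ± 6.77 in siblings. Its log2 fold change was −0.34 ± 0.13 (SE, edgeR unadjusted p = 0.0214, adjusted p = 0.676, exact permutation p = 0.0346). The related hes6, an older name of which is her13.2 and which serves the somite clock, was at 51.9 ± 6.79 CPM in mutants against 57.2 ± 5.80 CPM in siblings (−0.14 ± 0.096 SE, edgeR adjusted p = 0.81).

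Across all 40 members the embryos at the extremes were mutants 6 and 7. Mutant 6 was the lowest of the 11 embryos in 15 members and the highest in 5, and mutant 7 was the highest in 15 and the lowest in 0. Over all tested genes mutant 6 was the lowest in 18.1% and the highest in 16.5%, and mutant 7 the highest in 12.2% and the lowest in 12.7%. The sum of the 5 Delta genes was 509 CPM in mutant 6 and 766 CPM in mutant 7, against 597 to 698 CPM in siblings. The sum of 9 neural progenitor markers had its lowest and highest mutants in the same pair, at 1075 CPM in mutant 6 and 1441 CPM in mutant 7, against 1199 to 1481 CPM in siblings. The part of neural progenitor content in the Delta levels was not tested. On log2 CPM, dla and dld gave r of 0.927 and rho of 0.845 over the 11 embryos (permutation p = 0.00012 and 0.00206, adjusted 0.00048 and 0.00412). Their r was 0.721 without the 2 farthest embryos, 0.966 within mutants and 0.697 within siblings. For her4.2 and her4.3 the r was 0.815 and the rho 0.736 (permutation p = 0.00439 and 0.01265, adjusted 0.00439 and 0.0126). The r was 0.469 without the 2 farthest embryos and 0.947 within mutants, where mutants 1, 3 and 6 were low in her4.3. Within siblings it was −0.25, so a positive relation was seen within mutants and not within siblings. These copies may share reads.

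**Figure D5:**
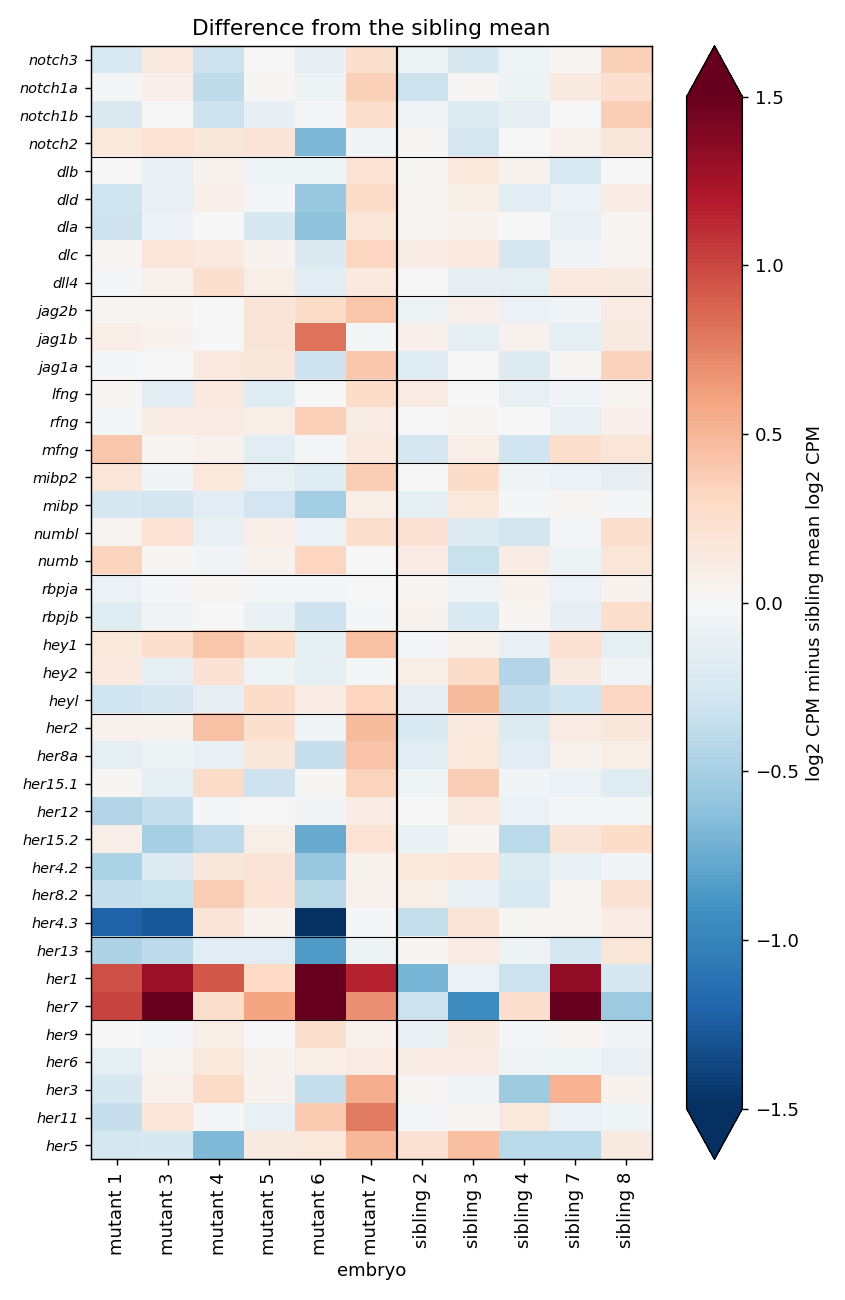
Log2 CPM of each member (rows, by family) minus its mean over the siblings, for every embryo (columns, 6 mutants then 5 siblings), in red where higher and blue where lower, with colours held at 1.5 either way. The deepest reds are in the her1 and her7 rows, in mutants and in sibling 7, and the column of mutant 6 is blue for notch2, dla, dld, her13 and her4.3 and red for jag1b.

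Other genes of the pathway also lay on both sides of 0. Of 13 processing genes, such as the receptor-cutting protease adam10a, 7 had fold changes above and 6 below 0, and by total counts 11 were above and 2 below. Of 9 nuclear cofactors 5 were above and 4 below, with a median of 0.011, or 6 and 3 by total counts, and of 12 tested regulators 6 were above and 6 below, with a median of −0.013. In these 3 lists 0 genes had an edgeR unadjusted p under 0.05. The feedback inhibitors nrarpa and nrarpb, which Notch itself switches on, were at 208 ± 26.4 and 163 ± 27.6 CPM in mutants against 219 ± 12.6 and 171 ± 20.7 CPM in siblings. The one wide value in these lists was lnx1, whose product marks Numb for degradation in mammals, with a log2 fold change of 1.52 ± 0.71 (edgeR adjusted p = 0.731). It was at 152 CPM in mutant 6, at 9.43 to 33.6 CPM in the other mutants and at 10.8 to 23.0 CPM in siblings. The genes nrarpa, nrarpb, adam10a, hes6, tbx16 and lnx1 were picked out after their values were seen. Of 10 other Hes-type factors and Id genes, 5 were above and 5 below 0.

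The genes listed here as proneural targets of her repression were lower in fitted value in mutants wherever they were tested, in 9 of the 10 with values. The other, neurog3, named after its values were seen, had at most 5 counts in any embryo. The 9 include olig2 and ptf1a, and also neurod4, which is counted among the early neuron genes below as well. Whether her factors repress each of the 9 in these embryos was not tested. Over all tested genes 49.8% had a lower value. The median log2 fold change of the 9 was −0.31, and 6 of them had an edgeR unadjusted p under 0.05, against 3.06% of all tested genes in that direction. One of the 6, atoh7, was near the floor, with a mean count of 8.27 an embryo. Its passing the low-count filter leaned on the siblings, where it was higher (−1.10 ± 0.44 SE, edgeR adjusted p = 0.684). None of the 9 passed after adjustment. The lowest p was that of atoh1a, at 5.32 ± 0.762 CPM in mutants against 8.99 ± 1.22 CPM in siblings (−0.76 ± 0.13 SE, edgeR adjusted p = 0.152), followed by ascl1b (−0.47 ± 0.11, adjusted p = 0.307), ascl1a (−0.31 ± 0.078, adjusted p = 0.427) and neurog1 (−0.31 ± 0.093, adjusted p = 0.582). These genes were known from earlier results of the same embryos, so the list is no independent evidence of its direction. Of 9 tested neural progenitor genes 3 had fold changes above and 6 below 0, with a median of −0.061, or 4 and 5 by total counts. The lowest p was that of sox19b (−0.26 ± 0.11, edgeR adjusted p = 0.711). Of 6 early neuron genes 3 were above and 3 below 0, and stmn2b was at 0.33 ± 0.11 and tubb5 at −0.21 ± 0.088 (adjusted p = 0.614 and 0.711). All 7 tested endothelial genes had fold changes above 0, as did 50.2% of all tested genes, and their median was 0.094. Without mutant 6 this was 6 of 7, with a median of 0.057. In that list etv2 and egfl7 had the lowest p (0.23 ± 0.076 and 0.25 ± 0.095, edgeR adjusted p = 0.614 and 0.676). The summed endothelial level was 199 to 262 CPM in mutants against 190.0 to 238 CPM in siblings, and the Notch genes of that tissue, dll4 and hey2, were at 0.056 ± 0.091 and −0.016 ± 0.12.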

How the data were processed

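RNA of single embryos was prepared with the TruSeq RNA v2 kit, which keeps no strand, per the labels' protocols. The authors deposited estimated counts and TPM values for 14473 genes. The submitters' processing notes name RSEM 1.2.18, Bowtie 1.1.1 and CASAVA 1.8.2 beside build Zv9, without saying which did what, and the annotation is not given in the sources used here. The deposited counts were whole and taken as rounded RSEM estimates. The TPM values, scaled per length by the authors, served for levels between genes and as an alternative.

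The comparison of mutants to siblings used edgeR 4.0.16 under R 4.3.3 (quasi-likelihood test, TMM, filterByExpr, Benjamini-Hochberg over 12301 genes at 0.05). SE came from the F statistic, and a prior count of 1 went into log2 CPM. Exact permutation tests used the 462 splits of the embryos, with 0.00433 the smallest two-sided p. DESeq2 1.42.0, limma 3.58.1, other scalings, filters, pseudocounts of 1 and 0.1 and left-out embryos were alternatives. The tests were tested on simulated data. The members, lists and families were chosen with earlier results of these data known. Named were members with an unadjusted p under 0.05 or no overlap, and the 2 most abundant of each family. The other members are given because they are members, and her7 and her4.3 were given per embryo after their values were seen. Of each other list up to 4 genes with such a p were named, and a few others after their values were seen. All 40 member names matched a symbol of GRCz12tu, used only for names and neighbours. Between libraries of a group (25 pairs) chi-square per degree of freedom was 7.79 or more, so no pair was as close as sampling noise allows. No label says whether embryos share a clutch.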

Additional observations from a re-analysis of the deposited data

Results flagged for a closer look

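In 80 groups of values (40 members in 2 groups), 7 had an embryo far from the rest by Dixon's criterion, where chance gives about 1 in 20. Mutant 6 was such an embryo for jag1b, at 104.7 CPM against 58.5 to 67.7 CPM in the other mutants, for notch2, at 78.4 CPM against 122 to 145 CPM, and for rfng, at 64.7 CPM against 49.6 to 54.9 CPM. Sibling 7 was high for the neighbouring clock genes her1, at 7.18 CPM against 1.72 to 2.64 CPM in the other siblings, and her7, at 2.11 CPM against 0.331 to 0.827 CPM. Sibling 3 was high for her15.1, at 71.4 CPM against 48.4 to 53.7 CPM in the other siblings, and for mibp2, at 273 CPM against 207 to 225 CPM.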

How the results depend on the processing

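No member passed an adjusted p of 0.05 under any of the 23 alternatives run or at a threshold of 0.1. The count at an unadjusted p under 0.05 was 4 and stayed between 3 and 6, except that it was 1 (hey1) with the replicate number as a block. Over all genes the share at such a p was 2.35% with the block, against 5.61% to 7.9% in the other fits. Only numbers 3, 4 and 7 hold both groups, so the block fit compares mutants with siblings in those embryos alone. Leaving out single embryos gave 3 to 5, and leaving out mutants 6 and 7 together, added after the data were seen, gave 5. The shared numbers 3, 4 and 7 gave no sign of pairing: their deviations correlated at −0.308, −0.195 and −0.144, and no embryo correlated best with its own number. So few values cannot exclude that equal numbers share a clutch. Over all genes calls numbered 0 by edgeR, 43 by DESeq2, 2 by limma-voom, 24 without mutant 6, 25 without mutants 6 and 7 and 1 without sibling 7. Signs turned for genes whose log2 fold change in the main fit lay between −0.12 (rbpjb) and 0.060 (her9). None of these was called, and the cause was not tested. With the block, log2 fold changes were 0.14 for dld, −0.0078 for her9, 0.023 for hey2, 0.12 for notch3, 0.030 for rbpja and 0.083 for rbpjb. Total counts gave 0.0097 for hey2, 0.030 for notch1a and 0.0055 for rbpja. Upper-quartile factors gave 0.0091 for notch1a. Log2 TPM with pseudocount 1 gave 0.027 for hey2, 0.038 for notch1a and 0.010 for rbpja, with or without the filter, and with 0.1 it gave 0.030, 0.038 and 0.011. Limma-voom gave −0.011 for her8a. Without mutants 6 and 7 the values were −0.019 for dlb, −0.032 for her8a, 0.032 for hey2 and −0.034 for lfng. Leaving out single embryos gave −0.046 to 0.048 for dlb, −0.091 to 0.066 for her8a, −0.11 to 0.056 for hey2, −0.027 to 0.066 for lfng, −0.078 to 0.064 for notch1a and −0.10 to 0.055 for notch3. The other 12 named members tested this way kept their sign. The lowest mean count of the members was that of heyl, 14.2 an embryo, so depth limits it most.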
